A study of Mus musculus with 20 samples.

Results

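Vcam1, Icam1 and 8 integrin subunit genes (Itga4, Itga5, Itga6, Itgal, Itgax, Itgb1, Itgb2 and Itgb5) were followed in microglial RNA of mThy1-α-synuclein and wild-type mice. They were taken by gene symbol, 10 of the 24062 genes in the table, and all 10 were above the minimum level for testing at both ages. mThy1-α-synuclein mice, which the labels call HEM, overexpress full-length human wild-type α-synuclein from a transgene on the X chromosome. The murine Thy-1 promoter drives it, a promoter known chiefly for its activity in neurons. Controls were wild-type males, and all mice shared the B6D2F1/J background. There were 6 mThy1-α-synuclein and 4 wild-type males at 7 months of age, and 5 and 5 at 10 months. Every library was made from 1 mouse's whole brain, and both genotypes of an age were processed together. Microglia were selected with magnetic beads, against CD11b in the study's methods and against IBA1 in the sample labels.

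Between 33404096 and 77806399 reads per mouse were counted on genes. Values are normalized counts, meaning reads on a gene divided by a size factor that sets the mice of 1 age to a common depth. Because the ages were scaled separately and processed apart, levels were compared between genotypes within an age, and only the size of the genotype difference was compared between ages. A gene passed the test when its adjusted p, given by limma on log2(value + 1) and adjusted by Benjamini and Hochberg over all genes tested, was under 0.05. The 9 microglia markers checked (P2ry12, Tmem119, Csf1r and others) summed to between 1.07e+06 and 1.50e+06 normalized counts per mouse. Their mean sum was higher in mThy1-α-synuclein mice at both ages, but single markers were divided. At 7 months the mean sum was 1.31e+06 for the wild type and 1.44e+06 for the transgenic group, with 1 of 9 called higher (Gpr34). At that age 3 of 9 had a negative log2 fold change, the lowest at -0.73. At 10 months the mean sum was 1.13e+06 against 1.26e+06, with 3 of 9 called higher (Sall1, Siglech and Cx3cr1). Only Tmem119 was negative at 10 months, at -0.19 (unadjusted p under 0.05 by limma). The part of the shift of this sum in the genotype differences of Vcam1, Itga5, Itgax and Itgam was not tested. No marker of any of the 12 cell type and cell state lists was at 0 in all mice of a group, so transcripts that mark other cells were present in every group.

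Integrins are receptors of 1 α and 1 β chain that join the cell surface to matrix or to other cells. VCAM-1, the product of Vcam1, is a surface protein best known on activated endothelium, where α4β1 integrin on leukocytes binds it, and ICAM-1 is the counter-receptor of the β2 integrins. Microglia carry β2 integrins, CD11b/CD18 above all, and use integrins to attach, migrate and take up particles.

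Promoter sequence was in the RefSeq table used here for 6 of the 10 genes (Icam1, Itga4, Itga5, Itgax, Itgb1 and Itgb5). The 250 bases before the annotated start of Itga5 and Itgax are shown because these were the members with a promoter entry that passed the test at 1 of the ages. Build GRCm38.p6 was used, at chr15:103366792-103367041 on the minus strand for Itga5 and chr7:128129300-128129549 on the plus strand for Itgax. The last bases of both stretches also lie in a transcript, and the Itgax stretch ends past the gene start of 128129547 used for positions here. Neither is therefore certain to lie wholly before the start of transcription. Capitals mark matches to the motifs given next.
Itga5: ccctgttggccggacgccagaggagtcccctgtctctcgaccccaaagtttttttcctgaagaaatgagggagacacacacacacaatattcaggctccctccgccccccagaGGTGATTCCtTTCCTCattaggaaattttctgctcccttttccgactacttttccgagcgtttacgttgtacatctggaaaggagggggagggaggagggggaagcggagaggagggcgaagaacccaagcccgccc
Itgax: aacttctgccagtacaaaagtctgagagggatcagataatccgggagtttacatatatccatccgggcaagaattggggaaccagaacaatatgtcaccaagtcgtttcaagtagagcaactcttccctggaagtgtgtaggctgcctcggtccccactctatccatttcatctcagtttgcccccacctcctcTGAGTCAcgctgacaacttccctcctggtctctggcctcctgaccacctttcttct
On both strands, 4 motifs were searched, GGNNNTTCC for NF-kB, 2 copies of GAAA with 2 bases between them for the interferon response element, TGANTCA for AP-1 and GAGGAA for PU.1. Itga5 held an NF-kB and a PU.1 match, which did not overlap each other, and Itgax held an AP-1 match that reads on both strands. An NF-kB match was present in 3 of the 6 promoters (Icam1, Itga5 and Itgb1), against 15.7% of 32851 promoters of the same length. PU.1 was matched in 2 of 6 against 23.3%, AP-1 in 1 of 6 against 6.75%, and the interferon response element in 0 of 6 against 2.98%.

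The β chains were the most abundant members per length in every group. As normalized counts per kb of merged exon, the order was Itgb5, Itgb2, Itgb1 and Itga6, then Icam1, and none of these neighbours overlapped between mice of a group. In wild-type mice at 7 months the means were 25157 ± 3310 for Itgb5, 12351 ± 890 for Itgb2, 9988 ± 185 for Itgb1, 3846 ± 331 for Itga6 and 910.4 ± 40.7 for Icam1 (SD, n = 4). Below Icam1, the order changed with group. Vcam1 was the lowest member in wild-type mice at 7 months, at 179 ± 29.6 normalized counts per kb and overlapping Itga5 at 197 ± 21.2. In the mThy1-α-synuclein mice of that age it lay seventh, at 571 ± 156 normalized counts per kb (SD, n = 6), and overlapped both Itgax above it and Itgal below it.

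Vcam1 was higher in mThy1-α-synuclein mice at both ages, and the difference was larger at 7 months. The gene lies on chromosome 3 from 116109949 to 116129688 of mm10, minus strand. At 7 months the normalized counts were 1822, 1588, 1221 and 1718 in the 4 wild-type mice, and in the 6 mThy1-α-synuclein mice the lowest was 3407, the median 4938 and the highest 6675. All 6 lay above every wild-type mouse. The log2 fold change was 1.64 (standard error 0.21), a 3.12-fold difference with an adjusted p of 0.00275, which stayed between 0.00150 and 0.0118 when each mouse was left out in turn. In bulk RNA, more cells with a transcript and more transcript per cell cannot be told apart.

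At 10 months the wild-type mice had 2367, 2916, 2555, 2453 and 3088 normalized counts of Vcam1, and the mThy1-α-synuclein mice had 3128, 4023, 3536, 3059 and 4417. Of the 5 mThy1-α-synuclein mice, 4 lay above every wild-type mouse, and replicate 4 (3059) lay within the wild-type range. This gave a log2 fold change of 0.43 (standard error 0.11, 1.35-fold, adjusted p = 0.0283). The call was lost when any 1 of 5 mice was left out. The adjusted p was 0.0626, 0.0576 and 0.0632 without mThy1-α-synuclein replicates 2, 3 and 5, and 0.0659 and 0.0591 without wild-type replicates 1 and 3. With all 20 mice in 1 limma fit the call was lost as well (adjusted p = 0.130). Tested directly, the genotype difference at 10 months minus that at 7 months was -1.21 on the log2 scale (standard error 0.24, adjusted p = 0.00726, n = 20 mice), and it remained past the threshold whichever mouse was left out.

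**Figure D1:**
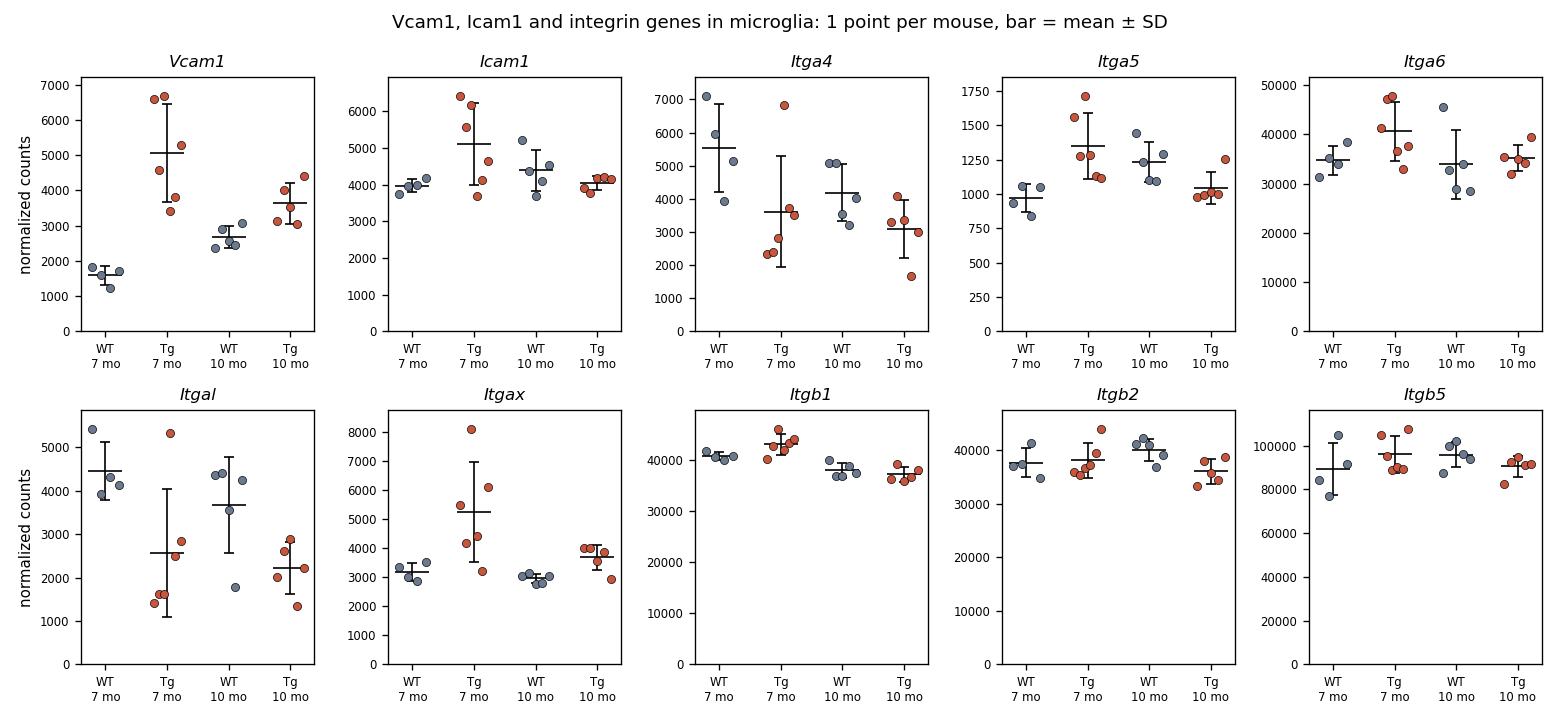
Normalized counts (vertical axes, starting at 0) of the 10 genes in wild-type (WT, grey) and mThy1-α-synuclein (Tg, red) mice at 7 and 10 months, with 1 point per mouse and bars for the mean and SD. The Tg mice at 7 months sit between 3407 and 6675 for Vcam1, all above the WT mice, while for Itga4 and Itgal 1 Tg mouse of that age lies far above the other Tg mice.

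As markers of the cell type in which Vcam1 is best known, 10 endothelial genes were examined beside it. Their summed level at 7 months was 2220 to 3023 normalized counts for mThy1-α-synuclein and 2775 to 3820 for wild-type mice, lower on average but with overlap. At 10 months it was 3176 to 7543 against 4417 to 7918. None of the 10 was called higher at either age by limma, edgeR or DESeq2, and Cldn5, a tight junction protein of brain endothelium, fell at 7 months by 1.29 on the log2 scale (adjusted p = 0.0125, but 0.0552 without wild-type replicate 1). Cdh5, the endothelial cadherin, differed by -0.18 at 7 months (adjusted p = 0.633). At that age 1 of the 10 was positive (Kdr, 0.29, unadjusted p under 0.05 by limma). Of the 9 negative genes, 7 had an unadjusted p under 0.05. At 10 months 3 were positive and 7 negative, with 0 under 0.05 before adjustment. The part of endothelial cells in the level of Vcam1 was not tested.

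Icam1 did not follow Vcam1 past the threshold. It lies on chromosome 9 from 21015985 to 21028817, plus strand. At 7 months the wild-type mice had 3739.9, 3973, 3992 and 4173 normalized counts, and the mThy1-α-synuclein mice had 3695 at the lowest, 5109 at the median and 6411 at the highest. Of these, 4 mice lay above and 1 below all wild-type mice. limma's log2 fold change was 0.33 (standard error 0.14, adjusted p = 0.204), and without mThy1-α-synuclein replicate 4, the lowest mouse, it was 0.42 (adjusted p = 0.0489). At 10 months it was -0.11 (standard error 0.08, adjusted p = 0.467). Its change between the ages was -0.44 on the log2 scale (adjusted p = 0.124, and 0.0323 without mThy1-α-synuclein replicate 4 at 7 months).

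Over the 10 genes, 2 passed the test at 7 months (Vcam1 and Itga5), against 4.93% of the 13887 genes tested. At 10 months 2 passed (Vcam1 and Itgax), against 7.67% of 13627 genes. All of these calls were higher in mThy1-α-synuclein mice, against 2.23% and 3.88% of tested genes called in that direction. None was called lower by limma, edgeR or DESeq2, although before adjustment 1 at 7 months and 3 at 10 months had a p under 0.05, and 2.7% and 3.79% of all tested genes were called lower. Mice of the genotypes did not overlap for 2 of the 10 genes at 7 months, against 7.53% of all genes, and for 0 of 10 at 10 months, against 7.27%. The change between ages passed the test for 2 of 10 (Vcam1 and Itga5), against 6.36% of 14457 genes, and both effects were more negative at 10 months, as for 2.62% of all genes. The median log2 fold change of the 10 genes was 0.16 at 7 months and -0.10 at 10 months, beside 0.00 at either age for all tested genes.

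**Figure D2:**
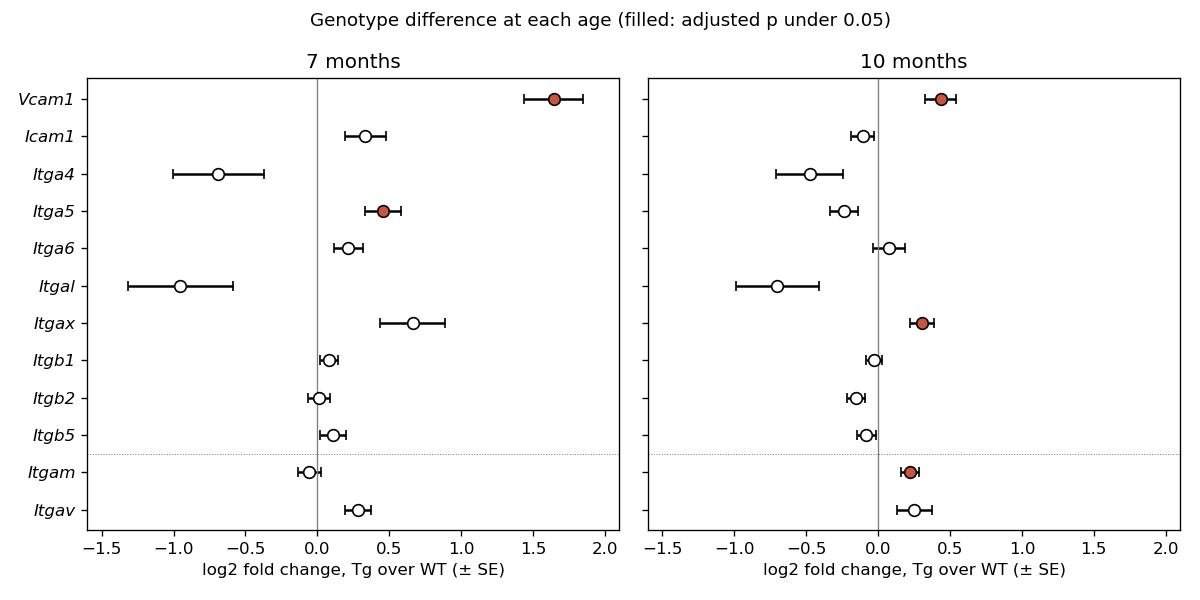
Log2 fold change of mThy1-α-synuclein (Tg) over wild-type (WT) mice with its standard error at 7 months (left) and 10 months (right), filled where the adjusted p was under 0.05. Itgam and Itgav, below the dotted line, are the CD11b gene and the α partner of β5. Vcam1 has the highest value in both panels, 1.64 and 0.43, and Itgal the lowest, -0.95 and -0.70.

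Among the α chains that pair with β1, Itga5 was higher in mThy1-α-synuclein mice at 7 months. It encodes the α5 chain of the fibronectin receptor and lies on chromosome 15 from 103344286 to 103366763, minus strand. The wild-type mice had 930.3, 1058, 841 and 1054 normalized counts, and the mThy1-α-synuclein mice had 1115 at the lowest, 1279.6 at the median and 1712 at the highest, above every wild-type mouse. The log2 fold change was 0.46 (standard error 0.12, 1.37-fold, adjusted p = 0.0460). The call was kept without mThy1-α-synuclein replicate 5 or 6, but leaving out any other mouse of that age gave adjusted p-values from 0.0509 without mThy1-α-synuclein replicate 4 to 0.148 without wild-type replicate 3.

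At 10 months Itga5 lay the other way, without passing the test. The wild-type mice had 1441, 1228, 1104, 1097 and 1289 normalized counts and the mThy1-α-synuclein mice 976, 988, 1016, 999 and 1252. Of the latter, 4 lay below every wild-type mouse and replicate 5 within their range. This gave a log2 fold change of -0.23 (standard error 0.10, adjusted p = 0.158). The change between the ages, -0.69 on the log2 scale (standard error 0.16), had an adjusted p of 0.0132 and passed the test whichever mouse was left out, with 0.0330 as the highest value.

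Itga6, the α6 chain of laminin receptors, and Itgb1, the β1 chain shared by α4, α5 and α6, did not pass the test at either age. For Itga6 on chromosome 2 from 71745616 to 71858416, plus strand, group means lay between 33892 and 40564 normalized counts. Its log2 fold changes were 0.22 at 7 months (95% confidence interval 0.00 to 0.43) and 0.07 at 10 months (-0.17 to 0.31). For Itgb1 on chromosome 8 from 128685654 to 128733200, plus strand, they were 0.08 (-0.06 to 0.21) and -0.03 (-0.15 to 0.09).

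Itgax rose at 10 months. It encodes CD11c, the αX chain of a β2 integrin that is commonly used as a marker of dendritic cells and of activated microglia, and lies on chromosome 7 from 128129547 to 128150657, plus strand. At 10 months the wild-type mice had 3049.8, 3129, 2773, 2784 and 3050.4 normalized counts, and the mThy1-α-synuclein mice 3988, 4014, 3547, 3871 and 2952. All mThy1-α-synuclein mice but replicate 5 lay above the wild-type mice. limma's log2 fold change was 0.31 (standard error 0.09, 1.24-fold, adjusted p = 0.0432). Leaving out any mouse of that age except mThy1-α-synuclein replicate 5 ended this call, with adjusted p-values up to 0.0990 without mThy1-α-synuclein replicate 1.

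At 7 months Itgax had a larger difference and a wider spread. The wild-type mice had 3335, 2995, 2872 and 3519 normalized counts, and the mThy1-α-synuclein mice had 3202 at the lowest, 4957 at the median and 8089.6 at the highest. Of the 6, 5 lay above every wild-type mouse. The log2 fold change was 0.66 (standard error 0.23) with an adjusted p of 0.132 by limma, 0.108 by edgeR and 0.0451 by DESeq2, and limma gave 0.0326 without replicate 5, the lowest mThy1-α-synuclein mouse. The change between the ages, -0.36, had an adjusted p of 0.418. Of 6 dendritic cell markers (Flt3, Zbtb46 and others), none was called higher at either age by limma or edgeR, and DESeq2 called Clec9a higher at 10 months (0.74, adjusted p = 0.0474). At that age their sum was lower in mThy1-α-synuclein mice (1292 to 1655 against 2143 to 3032 normalized counts, without overlap), and most of this was Cd209a, whose mean fell from 1929 to 1070.1 normalized counts (adjusted p = 0.000602). The other markers were divided, with 3 of 6 positive at 7 months (2 of them with an unadjusted p under 0.05, Zbtb46 and Clec9a) and 2 of 6 at 10 months.

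Genes of the disease-associated microglia state were read beside Itgax as well. Of 10 tested, 8 had a positive log2 fold change at 7 months, with a median of 0.31, and 7 at 10 months, with a median of 0.04. By limma and edgeR 0 of the 10 passed at either age, with 1 under 0.05 before adjustment at each (Clec7a higher at 7 and Csf1 lower at 10 months), and DESeq2 called Csf1 lower at 10 months. Their summed level at 7 months ran from 86521 to 151661 normalized counts with the transgene and from 88109 to 103264 without it.

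Itga4 and Itgal, α chains carried by circulating leukocytes, had the lowest fold changes of the 10 genes without passing the test. Itga4 encodes α4, which binds VCAM-1, and lies on chromosome 2 from 79255426 to 79333123, plus strand. At 7 months the wild-type mice had 7103, 5947, 3927 and 5152 normalized counts, and the mThy1-α-synuclein mice had 2343 at the lowest, 3174.5 at the median and 6820.0 at the highest. All but replicate 4 of the latter lay below every wild-type mouse. This gave a log2 fold change of -0.69 (standard error 0.31, adjusted p = 0.250), and without replicate 4 it was -0.89 (adjusted p = 0.0275). At 10 months it was -0.48 (standard error 0.23, adjusted p = 0.254), with 1687 to 4081 normalized counts in mThy1-α-synuclein and 3223 to 5083 in wild-type mice.

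Itgal encodes αL, the partner of β2 in LFA-1, which binds ICAM-1, and lies on chromosome 7 from 127296260 to 127335138, plus strand. At 7 months the wild-type mice had 5419, 3926, 4306 and 4142 normalized counts, and the mThy1-α-synuclein mice had 1403 at the lowest, 2060.0 at the median and 5338 at the highest. The highest was again replicate 4, and no other mouse of that genotype reached the wild-type range. limma's log2 fold change was -0.95 (standard error 0.37, adjusted p = 0.182), and -1.20 (adjusted p = 0.0126) without replicate 4. At 10 months the wild-type mice had 4356, 4399, 3565, 1786 and 4234 normalized counts and the mThy1-α-synuclein mice 2004, 2609, 2894, 1353 and 2228. Here wild-type replicate 4 was the low mouse. The log2 fold change was -0.70 (standard error 0.29, adjusted p = 0.184), and -0.94 (adjusted p = 0.0142) without it.

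Lymphocyte markers were lower in mThy1-α-synuclein mice at both ages, and markers of monocytes, neutrophils and border macrophages at 10 months. The 9 lymphocyte markers summed to 441 to 954 normalized counts in mThy1-α-synuclein and 1344 to 2549 in wild-type mice at 7 months, and to 423 to 764 and 1114 to 2281 at 10 months, without overlap at either age. Of those tested, 3 of 8 fell at 7 months, with Gzma, a granzyme of cytotoxic cells, at -1.93 on the log2 scale (adjusted p = 0.0151). At 10 months 4 of 7 fell, with Cd3d, a chain of the T cell receptor complex, at -2.33 (adjusted p = 0.00143). In mThy1-α-synuclein replicate 4 at 7 months the lymphocyte sum was 950 normalized counts, below every wild-type mouse. The sum of 6 monocyte markers was 30350 in that mouse, and 10395 to 30247 in the wild-type mice. In mThy1-α-synuclein mice of that age it was 8655, 8955 and 8779 in replicates 1 to 3 and 30350, 34768 and 24612 in replicates 4 to 6. Neutrophil sums split the same way, at 67673, 66104 and 40738 against 242297, 398817 and 220422. Itga4 and Itgal were also higher in each of replicates 4 to 6 than in any of replicates 1 to 3, and Icam1 was lower. In wild-type replicate 4 at 10 months the lymphocyte (1114), monocyte (19572) and neutrophil (142843) sums were the lowest of the wild-type group. Replicate 3, with 3565 normalized counts of Itgal, had nearly the same lymphocyte sum (1117). Its monocyte (41417) and neutrophil (351839) sums were the highest of that group. At 7 months 0 of 6 monocyte, 0 of 7 neutrophil and 0 of 7 border macrophage markers were called by limma, edgeR or DESeq2, and 0 had an unadjusted p under 0.05 by limma. At 10 months all 6 monocyte, 7 neutrophil and 7 border macrophage markers had a negative log2 fold change. Of these 5, 5 and 6 had an unadjusted p under 0.05 by limma. limma called 2, 2 and 4 of them lower, and DESeq2 called 5, 4 and 4. Border macrophage sums were 18879 to 24280 normalized counts in mThy1-α-synuclein and 25613 to 35529 in wild-type mice, without overlap. Monocyte sums were 10086 to 20050 against 19572 to 41417, and neutrophil sums 65712 to 176163 against 142843 to 351839. Mrc1, a border macrophage receptor, fell by 0.45 (adjusted p = 0.0151), whereas Ccr2, a monocyte chemokine receptor, at -0.47 (adjusted p = 0.0628), and the neutrophil gene S100a8, at -1.08 (adjusted p = 0.0896), did not pass. The part of these cells in the levels of Itga4, Itgal and Icam1 was not tested.

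**Figure D3:**
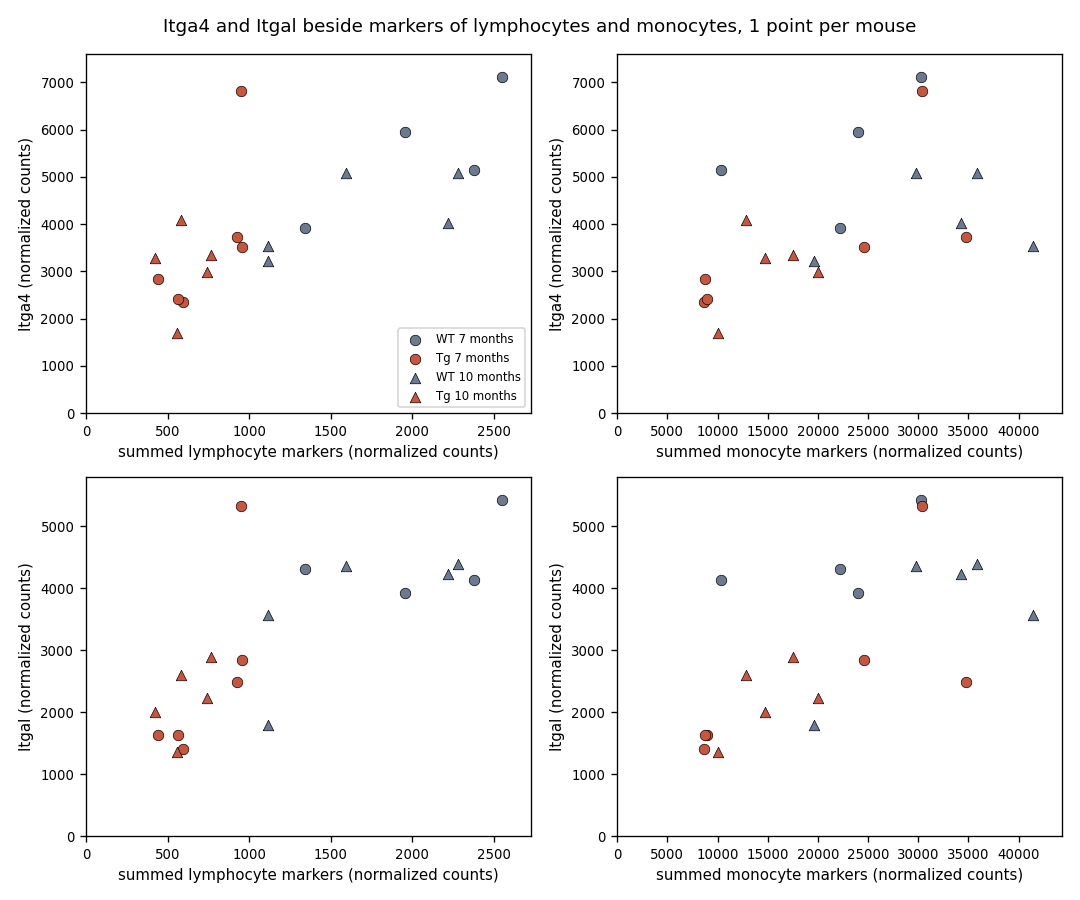
Normalized counts of Itga4 (top) and Itgal (bottom) against the summed normalized counts of lymphocyte markers (left) and monocyte markers (right), with 1 point per mouse, grey for wild-type (WT), red for mThy1-α-synuclein (Tg), circles for 7 and triangles for 10 months. At each age the Tg mice have the lower lymphocyte sums, and 1 Tg mouse at 7 months, with 6820.0 counts of Itga4 and 5338 of Itgal, lies above the other Tg mice.

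Itgb2, the β2 chain shared by αL, αX and CD11b, did not pass the test. It lies on chromosome 10 from 77530252 to 77565708, plus strand, and its group means lay between 36072 and 40105 normalized counts. Its log2 fold change was 0.01 at 7 months (95% confidence interval -0.15 to 0.18, adjusted p = 0.940) and -0.15 at 10 months (-0.29 to -0.02, adjusted p = 0.162). Itgb5, the β5 chain of a vitronectin receptor and a gene known for high expression in microglia, lies on chromosome 16 from 33829665 to 33949338, plus strand. Its log2 fold changes were 0.11 (-0.09 to 0.30, adjusted p = 0.530) and -0.08 (-0.22 to 0.06, adjusted p = 0.480).

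The α partners outside the 10 genes were read beside them. Itgam, which encodes CD11b and so the handle of the bead selection in the study's methods, had 122897 to 132569 normalized counts in wild-type and 134502 to 156114 in mThy1-α-synuclein mice at 10 months, without overlap. It rose by a log2 fold change of 0.22 (standard error 0.06, adjusted p = 0.0408), a call that 9 of the 10 single omissions ended, all but that of mThy1-α-synuclein replicate 4, with adjusted p-values up to 0.0924. At 7 months it differed by -0.06 (adjusted p = 0.730). Itgav, the α partner of β5, differed by 0.28 at 7 months (adjusted p = 0.0886, and 0.0391 without wild-type replicate 4) and 0.25 at 10 months (adjusted p = 0.237, and 0.0198 without mThy1-α-synuclein replicate 4).

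Ratios within a mouse need no size factor, so 7 pairs were compared at both ages with two-sided exact permutation tests, and p-values were adjusted over the 14 tests. After adjustment 0 of the 14 passed 0.05, whereas 6 did so before it. The smallest exact p that the design allows is 0.00476 at 7 and 0.00794 at 10 months. A single ratio at that value could not pass after adjustment over 14 tests, so the count of 0 cannot be read as an absence of differences. For Vcam1 over Icam1 at 7 months, the log2 ratio was -1.04, -1.32, -1.71 and -1.28 in the wild-type mice and between -0.28 and 0.19 in the 6 mThy1-α-synuclein mice. The means were -1.34 and -0.03, a difference of 1.31, and the exact permutation p of 0.00476 was the smallest that this design allows (adjusted p = 0.0556). At 10 months the difference was 0.54, again without overlap and with the smallest possible exact p, 0.00794 (adjusted p = 0.0556). Itgax over Itgb2 differed by 0.65 at 7 months (exact p = 0.0333, adjusted p = 0.0972) and 0.46 at 10 months (exact p = 0.0159, adjusted p = 0.0741). Itgal over Itgb2 differed by -0.97 (exact p = 0.0381, adjusted p = 0.0972) and -0.55 (exact p = 0.0873, adjusted p = 0.121). The count of ratios past the adjusted threshold was 5 without mThy1-α-synuclein replicate 4 at 7 months, and 3 without replicate 5 of that genotype at 7 or at 10 months.

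**Figure D4:**
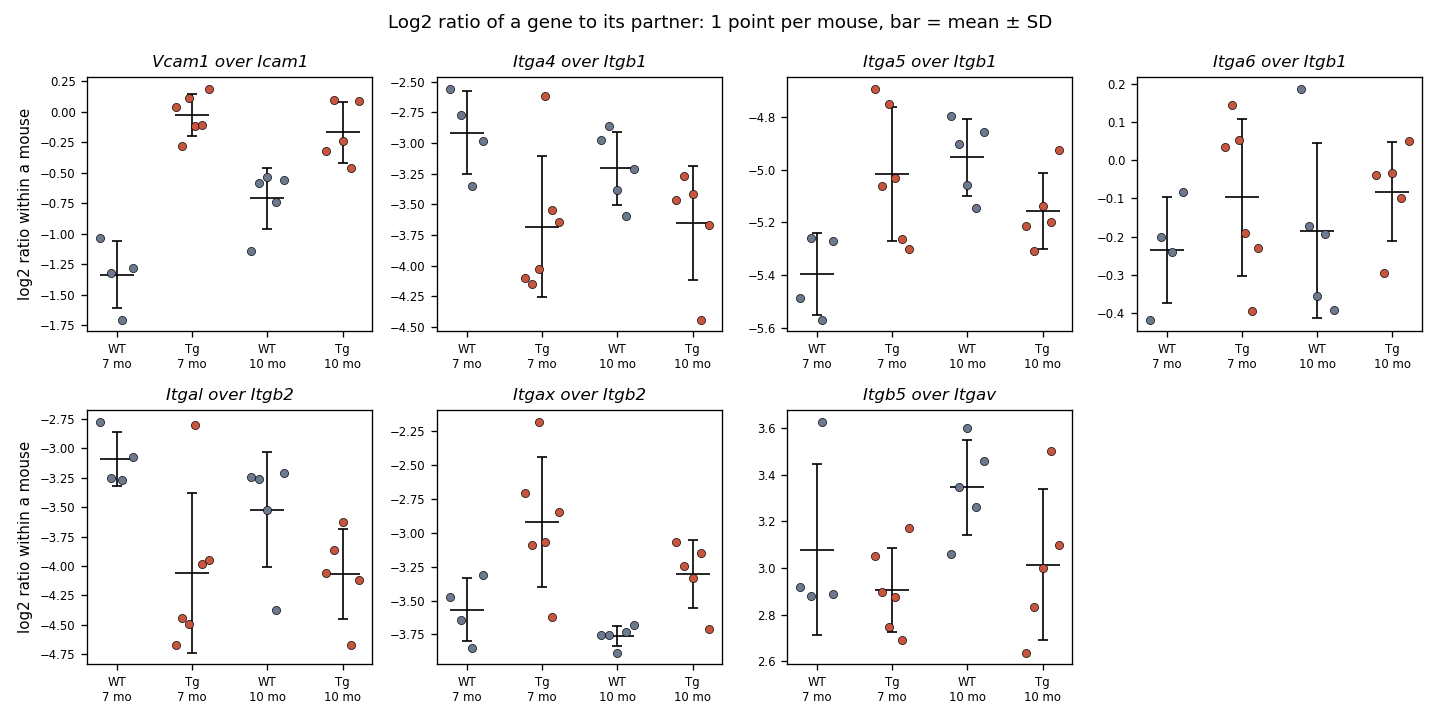
Log2 ratio of each gene to its partner within a mouse (vertical axes, which do not start at 0), with 1 point per mouse and bars for the mean and SD in wild-type (WT, grey) and mThy1-α-synuclein (Tg, red) mice. For Vcam1 over Icam1 the Tg mice lie above the WT mice at both ages, while the other 6 ratios overlap.

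Further genes of the pathway were read from 4 lists of related genes. Together 3 of 82 tested genes passed at 7 months and 8 of 82 at 10 months, which is 3.66% and 9.76%, near the 4.93% and 7.67% of all tested genes. Of 17 tested other integrin subunits, 0 passed at 7 months by limma and by edgeR and 1 by DESeq2, with 5 under 0.05 before adjustment, and at 10 months limma called Itgam, edgeR also Itgb7, and DESeq2 also Itgb7 and Itgb2l, both lower. Among 14 tested adhesion receptors of leukocytes and vessels, Pecam1, which joins endothelial cells and leukocytes, fell at 7 months by 0.55 (adjusted p = 0.0238). At 10 months F11r, a junctional adhesion molecule, fell by 0.37 (adjusted p = 0.0432). The medians of this list were -0.11 and -0.17 on the log2 scale.

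In the list of integrin activation and the adhesion complex, 1 of 30 tested genes passed at 7 months and 2 at 10 months. Of all tested genes 4.93% and 7.67% passed, so these counts are near that share. Parvg, the γ-parvin of leukocytes that binds the kinase ILK, fell at 7 months by 0.33 (adjusted p = 0.0148). Rasgrp2, an activator of the small GTPase Rap1 upstream of integrins, fell at 10 months by 1.18 (adjusted p = 0.00869), and Dock2, a Rac activator of leukocyte migration, rose by a log2 fold change of 0.26 (adjusted p = 0.0360). For the change between the ages 2 of the 30 passed, Tln1 and Parvg, near the 6.36% of all tested genes. Over the 4 lists 3 of 84 tested genes passed for this change (3.57%). Tln1, the talin that binds the tails of β chains, changed by 0.50 (adjusted p = 0.0202), with -0.28 at 7 months (adjusted p = 0.132) and 0.22 at 10 months (adjusted p = 0.0624). The call of Parvg for this change was lost in 11 of 20 omissions.

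Of 21 tested matrix and soluble ligands, 1 passed at 7 months and 4 at 10 months, beside 4.93% and 7.67% of all tested genes. Those at 10 months were divided in direction. Vtn, vitronectin, the ligand of αvβ5 and also a marker of mural cells, fell at 7 months by 1.40 from 152 ± 70.3 (SD, n = 4) to 55.6 ± 18.4 normalized counts (SD, n = 6, adjusted p = 0.0301). At 10 months Thbs1, a thrombospondin, fell by 1.24 (adjusted p = 0.00756) and Fn1, fibronectin, the ligand of α5β1, by 0.48 (adjusted p = 0.0222). Thbs2, a second thrombospondin, rose by a log2 fold change of 0.95 (adjusted p = 0.00198) and Lamb2, a laminin chain, by 0.79 (adjusted p = 0.0152). The difference of Thbs2 was also larger at 10 than at 7 months (1.03, adjusted p = 0.0159). The calls of Rasgrp2, Thbs1, Thbs2 and Lamb2 at 10 months held whichever mouse was left out, while those of Pecam1, F11r, Parvg, Dock2, Vtn and Fn1 were lost in 4, 9, 1, 7, 3 and 4 of 10 omissions. Among these the highest adjusted p ranged from 0.0528 for Parvg, without wild-type replicate 3, to 0.135 for Vtn, without wild-type replicate 1.

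**Figure D5:**
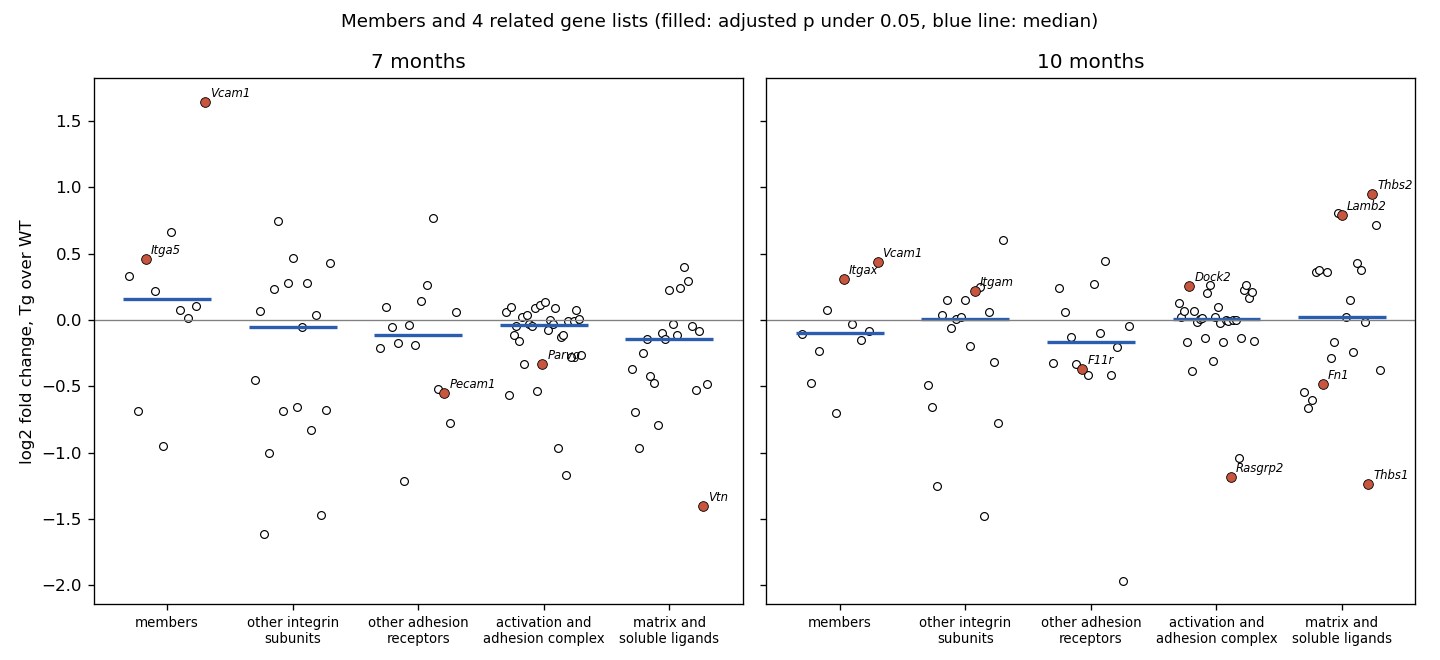
Log2 fold change of mThy1-α-synuclein (Tg) over wild-type (WT) mice for the 10 genes (members) and 4 lists of related genes at 7 months (left) and 10 months (right), with 1 point per tested gene, filled and named where the adjusted p was under 0.05, and a blue line at each median. At 7 months the filled points of the 4 lists (Pecam1, Parvg and Vtn) lie below 0, and those of the 10 genes above.

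To see which genes varied with Vcam1 from mouse to mouse, the mean of each of the 4 groups was subtracted from log2 values and Pearson's r was taken over the 20 mice, as a description. Cyp4v3 (0.78), Aoah (0.77), Plcd1 (0.76), Cd83 (0.75) and Abcg1 (0.75) had the highest values of 14456 genes. Of these, Abcg1, a cholesterol exporter, alone passed the test between genotypes, at 10 months (0.36, adjusted p = 0.00583). Itga5 (0.61, rank 101), Icam1 (0.59, rank 140) and Itgax (0.57, rank 172) stood far up the same order, and Itga4 (-0.17) and Itgal (-0.27) did not. Spearman's rank correlation was lower, at 0.58 for Itga5, 0.42 for Icam1 and 0.50 for Itgax, and 0.63 to 0.75 for the first 5 genes. These correlations share the same 20 libraries, so differences in library quality and cell makeup between mice enter all of them.

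The number of called genes near each member was counted as a description of its surroundings. Within 5 Mb of Vcam1, 2 of 20 tested genes were called at 7 months and 1 at 10 months, beside 6.03% and 7.21% on all of chromosome 3. Within the same distance of Icam1 2 of 68 were called at 7 months (2.94%, beside 6.57% on chromosome 9) and 11 of 68 at 10 months (16.2%, beside 10.8%). Itgal, Itgam and Itgax lie in 1 stretch of chromosome 7, and 6 of 123 genes within 5 Mb of Itgal were called at 7 months and 7 of 122 at 10 months, beside 4.30% and 8.27% on that chromosome. In the annotation, Gm43109 overlaps Vcam1, Gm47079 overlaps Icam1 and Cerkl overlaps Itga4, each on the other strand. Itga6 is overlapped by Gm13739 and Gm17250 on the other strand and by Gm13662 and Gm13663 on the same strand. Mir6963 overlaps Itga5 on the same strand. Whether the counting used strand is not given in the sources used here, so reads of such pairs could not be told apart.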

How the data were processed

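RNA from bead-selected microglia of 20 mice was sequenced as paired-end reads in a single run. Per the labels and the paper's methods, the authors trimmed reads with Trim Galore 0.6.7, mapped them to mm10 with HISAT2 2.2.1, counted them per gene with featureCounts and named DESeq2 1.44.0. The deposited values are a signal, gene counts divided by a DESeq2 size factor computed within each age. Dividing by each mouse's step gave back whole reads for 100% of values (tolerance 0.01 reads), although the step of mThy1-α-synuclein replicate 5 at 10 months was too near 1 to test. Annotation release, strand and the handling of multiply mapped reads are not given in the sources used here.

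A gene was tested where 10 normalized counts or more were seen in 4 mice (7 months), 5 mice (10 months) or 4 of 20 mice (change between ages), with limma 3.58.1 in R 4.3.3 on log2(value + 1), with mean-variance trend and robust estimation. Fold changes are on that scale. The change between ages is the genotype difference at 10 minus that at 7 months. Alternatives were edgeR 4.0.16, DESeq2 1.42.0 and limma-voom on recovered reads, pseudocounts of 0.5 and 5, no filter, a replicate block, all mice in 1 fit and leaving out each mouse. The steps were tested on simulated data. Positions are GENCODE's on mm10 (GRCm38), matched for 95.4% of tested genes.

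The 10 genes and all lists were chosen with earlier results of these data known, and 2 genes of the lists are not reported here. Named beside them are Itgam, Itgav, up to 5 genes of smallest adjusted p per list and age, the 5 genes most like Vcam1 and 5 cell type markers. Gzma, Cd3d, Cd209a, Itgb2l and the other markers named for a call or an unadjusted p, all chosen after their values were seen, and the genes that overlap a member are outside this rule. Each mouse is 1 replicate. The limma p-values set each group difference against the variation between mice, moderated over all genes tested. The exact p-values of the ratios rest on permuted genotype labels.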

Additional observations from a re-analysis of the deposited data

Results flagged for a closer look

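A single mouse stood apart from the others of its group in 9 of the 124 sets of 4, 5 or 6 mice examined, by Dixon's test at the 95% level, which chance alone passes in about 1 in 20. In mThy1-α-synuclein replicate 4 at 7 months, Itga4 was 6820.0 and Itgal 5338 normalized counts, both above the other 5 mice. Itga5 was 1252 normalized counts in mThy1-α-synuclein replicate 5 at 10 months, the highest of that group. The log2 ratio of Itgal over Itgb2 was -4.37 in wild-type replicate 4 at 10 months, and that of Itgb5 over Itgav was 3.63 in wild-type replicate 3 at 7 months. Among summed cell type markers, border macrophage markers reached 24280.3 normalized counts in mThy1-α-synuclein replicate 2 at 10 months, and neutrophil markers 69787 in wild-type replicate 4 at 7 months. Dendritic cell markers reached 3032 in wild-type replicate 1 and oligodendrocyte markers 12152 in wild-type replicate 3, both at 10 months.

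The genotype difference changed between the ages for Vcam1, by -1.21 on the log2 scale, and for Itga5, by -0.69, in the test of that change itself. The ages were scaled and processed separately, so age and processing cannot be told apart in these values.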

How the results depend on the processing

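Of the values for single genes and ratios, 842 kept direction and side of the threshold under the alternatives, 39 lost and 19 gained a call, and 10 changed sign. DESeq2 called 1158 genes at 7 months and 1694 at 10 months, against 684 and 1045 by limma, and 5 and 15 genes of the 4 lists, against 3 and 8. Without a filter on low values, 1 of the 10 genes was called at each age, and with all 20 mice in 1 fit 0 at 10 months. Leaving out each mouse gave 280 to 860 genes and 1 to 4 of the 10 genes at 7 months, 489 to 1232 genes and 0 to 2 of the 10 genes at 10 months, and 0 to 5 ratios. Over all genes tested, same-numbered mice correlated by -0.13 to 0.05 in their deviations from group means. At 10 months, however, replicate 4 was the lowest mouse of both genotypes for Itga4 (1687 and 3223) and Itgal (1353 and 1786). These values do not settle whether the replicate numbers in the labels pair the mice. With the replicate block, 414 genes were called at 7 months, 1 of them among the 10, 916 at 10 months, 3 among the 10, and 482 for the change between ages. The block called Itga4 (adjusted p = 0.0252) and Itgal (0.00427) lower at 10 months, and lost Itgax (0.0579) and Itgam (0.0943) at 10 months and Itga5 (0.0502) at 7 months. Signs changed for values near 0. Itgb2 at 7 months was -0.0523 with the replicate block, and -0.0278 to 0.0602 when each mouse was left out, below 0 without mThy1-α-synuclein replicate 6 or wild-type replicate 4. The change of Itgav between ages was 0.000531 by edgeR, 0.00407 by DESeq2 and 0.0651 by limma-voom, and -0.109 to 0.0887 on leaving out each mouse, above 0 without wild-type replicate 3 at 7 months, mThy1-α-synuclein replicate 4 or wild-type replicate 1 at 10 months. Itgb5 over Itgav at 7 months differed by -0.239 to 0.0096, the latter without wild-type replicate 3. The cause of these changes was not tested. How far sequencing depth limits the calls was not tested.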
